A study of Mus musculus with 14 samples.

Results

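Expression of 8 genes of the pluripotency programme was followed across culture media of mouse embryonic stem cells: Pou5f1, Nanog, Sox2, Sall4, Utf1, Zfp42, Dppa2 and Dppa4. They were listed by name, under a rule that uses no measured value, though earlier results of these data were known when they were chosen. All 8 matched 1 Ensembl identifier each among the 37991 identifiers in the files. All 8 also passed the filter on low counts, so each was tested in every comparison among 16033 genes.

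The cells were C57BL/6 embryonic stem cells that carry a pair of reporters, mCherry for the mir-290 cluster and eGFP for the mir-302 cluster, and every group described here carries both. In the main experiment, called experiment B, cells seeded at a low density spent 5 days in 1 of 5 media, and total RNA of each medium gave 2 libraries. VitC/LIF, 2i/LIF and L-Pro/LIF are additions to FBS/LIF, the serum medium with leukemia inhibitory factor (LIF), and FBS/LIF alone is the reference. Vitamin C was given at 500 µM, 2i stands for inhibitors of the kinases MEK and GSK3, and the dose of L-proline is not stated for these samples. The protocol lists 2i among additions to the serum medium, while the sample titles name LIF only. F/A is the serum-free medium N2B27 without LIF, to which bFGF (12 ng/ml) and activin A (20 ng/ml) were added, so it differs from FBS/LIF in serum, LIF and growth factors at once. In experiment A, 4 single libraries came from cells labelled positive for both reporters: L-Pro day 5 (1 mM L-proline), F/A day 3, F/A day 5 and untreated day 0 cells, the last from the maintenance culture in serum, LIF and 100 µM vitamin C. For the F/A libraries of experiment A, activin A at 20 ng/ml is stated and a dose of bFGF is not. Separate cultures for the 2 libraries of each medium are not stated, nor is the number of clones in the reporter line, so the p-values measure the spread between these libraries, which may be technical.

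Pou5f1 (the protein is also called Oct4) and Sox2 are transcription factors that bind DNA side by side at composite sites and sustain pluripotency together with Nanog, a homeodomain factor. The naive state of the preimplantation epiblast, held in culture by LIF and 2i, and the primed state of the postimplantation epiblast, held by activin and FGF, both need Pou5f1. Many other genes of the programme, Zfp42 among them, are known as marks of the naive side. Sall4 is a zinc-finger factor that recruits the NuRD chromatin complex, Utf1 is a chromatin-associated protein found at bivalent promoters, Zfp42 (Rex1) is a zinc-finger protein of the YY1 family, and Dppa2 and Dppa4 are SAP-domain chromatin proteins that act as a pair.

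The promoters of Nanog, Sox2 and Zfp42 are shown because letters that the Pou5f1 and Sox2 proteins are known to read stand close to their starts. The RefSeq table (build GRCm38.p6) held 5 of the 8 genes, namely Pou5f1, Nanog, Sox2, Utf1 and Zfp42, and the 250 bases before the first listed start were searched on both strands for ATGCAAA, the core of the octamer that POU factors read, and for CATTGT, a core read by SOX factors. Capitals mark a match on either strand, so the octamer core can appear as TTTGCAT and the SOX core as ACAATG, and no 2 matches overlapped. The Nanog window lies at chr6:122707239-122707488 on the plus strand, the Sox2 window at chr3:34649745-34649994 on the plus strand, and the Zfp42 window at chr8:43307010-43307259 on the minus strand.
Nanog: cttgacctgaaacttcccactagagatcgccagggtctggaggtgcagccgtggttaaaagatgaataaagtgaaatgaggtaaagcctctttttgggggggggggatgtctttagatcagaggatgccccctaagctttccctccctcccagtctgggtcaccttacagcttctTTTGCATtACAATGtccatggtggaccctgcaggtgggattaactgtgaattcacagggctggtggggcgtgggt
Sox2: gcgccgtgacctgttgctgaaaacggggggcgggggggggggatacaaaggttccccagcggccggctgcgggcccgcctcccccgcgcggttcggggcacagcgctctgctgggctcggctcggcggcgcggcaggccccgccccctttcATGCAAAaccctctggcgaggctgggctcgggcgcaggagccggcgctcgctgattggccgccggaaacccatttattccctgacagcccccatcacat
Zfp42: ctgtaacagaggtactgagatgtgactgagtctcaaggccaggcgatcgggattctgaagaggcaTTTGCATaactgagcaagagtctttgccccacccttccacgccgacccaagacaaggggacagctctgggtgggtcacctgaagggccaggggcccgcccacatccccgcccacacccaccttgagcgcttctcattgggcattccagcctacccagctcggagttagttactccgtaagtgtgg
In Nanog the octamer core begins 75 bases and the SOX core 67 bases before the start, with a single base between them, which is the composite arrangement. Sox2 holds an octamer core beginning 99 bases before the start, and Zfp42 holds 1 at 185 bases, with no SOX core in either window. Among the first windows of 27025 genes, 4.06% held the octamer core, 11.0% the SOX core and 0.662% both. The first windows of Pou5f1 and Utf1 held neither string of letters. Pou5f1 and Nanog also have a second listed start, searched in the same way. For Pou5f1 a SOX core began 158 bases before it. For Nanog the octamer core began 151 bases and the SOX core 143 bases before it. A match is a description of the letters, and binding was not measured here.

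F/A replicate 1 had 6937945 mapped fragments, the other libraries of experiment B between 17778399 and 26354444, and the libraries of experiment A held 33162689 to 39711061 counts. Levels of a gene across libraries are given as CPM, that is counts relative to the TMM-scaled library size, from counts estimated back from the deposited values. Tests are edgeR's quasi-likelihood F test with Benjamini-Hochberg adjustment over all 16033 genes, and "rose" and "fell" are used only for an adjusted p under 0.05. Over the 5 media together, 62.7% of all genes tested differed by this test and 7 of the 8 genes did, Sall4 being the exception with an adjusted p of 0.155. In bulk RNA, a smaller share of cells that express a gene and less RNA per cell cannot be told apart.

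Levels between genes can be compared only per length, and the plot of levels per length uses the deposited FPKM. Pou5f1 was the most abundant of the 8 in each medium, at 631 ± 36.2 FPKM in VitC/LIF, 773 ± 106 in 2i/LIF, 498 ± 58.5 in L-Pro/LIF, 479 ± 67.3 in F/A and 760 ± 84.5 in FBS/LIF (SD, n = 2 each). In VitC/LIF, 2i/LIF and FBS/LIF the next 2 were Sox2 and Zfp42. Sox2 stood at 329 FPKM in VitC/LIF, 336 in 2i/LIF and 287 in FBS/LIF, and Zfp42 at 312, 402 and 276 FPKM in the same 3 media. In F/A the order below Pou5f1 was different. Sall4 was second there at 66.7 ± 12.3 FPKM, followed by Nanog at 30.4 ± 1.69, Utf1 at 30.0 ± 8.17 and Sox2 at 30.0 ± 7.91, which lie within each other's spread. Dppa4 at 5.22, Zfp42 at 1.18 and Dppa2 at 0.216 FPKM were the lowest in F/A. All these are levels, and the SD is over 2 libraries.

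**Figure D1:**
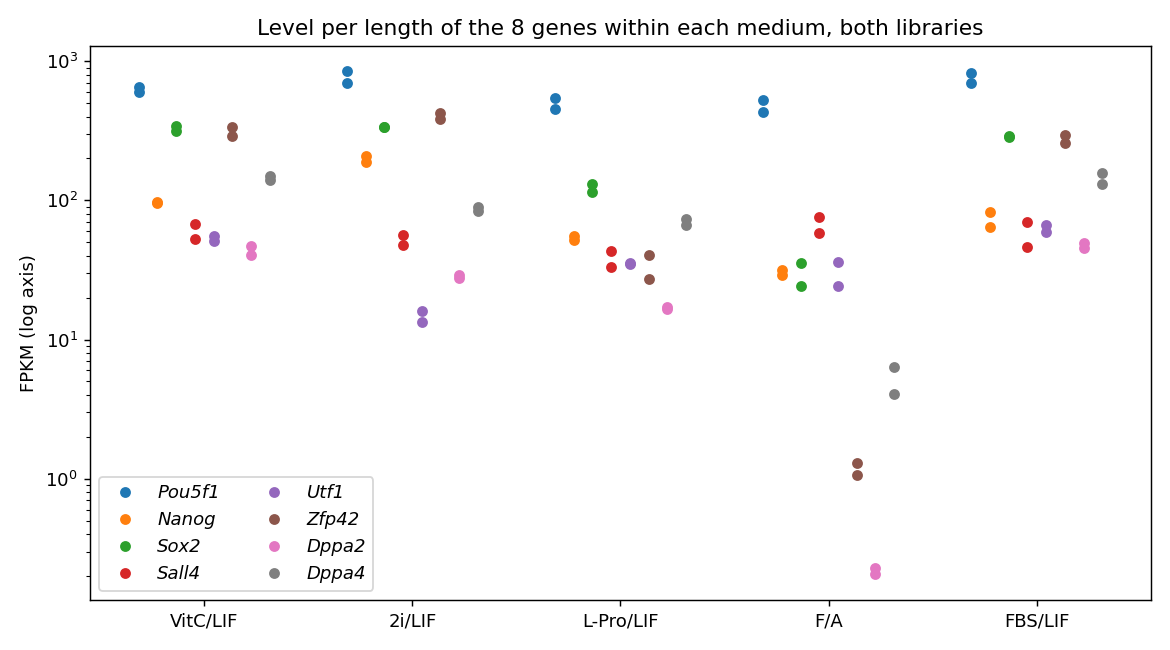
FPKM (log axis) of the 8 genes in both libraries of each medium, 1 point per library and 1 colour per gene. Pou5f1 is on top in each medium, at 479 to 773 FPKM as medium means, while Zfp42, Dppa2 and Dppa4 drop to between 0.216 and 5.22 FPKM in F/A.

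Among the core factors, Pou5f1 varied least. Its level was 755 and 716 CPM in VitC/LIF, 997 and 840 in 2i/LIF, 586 and 540 in L-Pro/LIF, 416 and 555 CPM in F/A, and 946 and 818 in FBS/LIF. The L-Pro/LIF and F/A libraries lay below all the others, and they overlapped each other. Relative to FBS/LIF, Pou5f1 fell in F/A (log2 fold change -0.86 ± 0.17 SE, adjusted p = 0.00375, edgeR) and in L-Pro/LIF (-0.65 ± 0.17, adjusted p = 0.0227). In the order of its medium means, from 2i/LIF through FBS/LIF, VitC/LIF and L-Pro/LIF to F/A, no neighbouring pair passed the test. The call in L-Pro/LIF was lost when any 1 of the 4 libraries was left out, with an adjusted p of up to 0.162.

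Nanog had 194 and 196 CPM in VitC/LIF, 364 and 430 in 2i/LIF, 103 and 106 in L-Pro/LIF, 48.2 and 51.9 CPM in F/A, and 130 and 161 in FBS/LIF. No pair of media overlapped in its libraries, which was not counted over all genes and does not amount to a call. Nanog rose in 2i/LIF (log2 fold change 1.45 ± 0.14, adjusted p = 0.00010, edgeR) and fell in F/A (-1.54 ± 0.14, adjusted p = 6.9e-05) relative to FBS/LIF. It also fell in L-Pro/LIF by the same test (-0.48 ± 0.14, adjusted p = 0.0351), a call lost when L-Pro/LIF replicate 1, L-Pro/LIF replicate 2 or FBS/LIF replicate 2 was left out (adjusted p up to 0.239). In VitC/LIF its difference from FBS/LIF was 0.43 ± 0.14 and did not pass (adjusted p = 0.249). Of its 10 pairwise comparisons 9 passed, with VitC/LIF over FBS/LIF as the exception.

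Sox2 measured 727 and 799 CPM in VitC/LIF, 793 and 803 in 2i/LIF, 286 and 267 in L-Pro/LIF, 47.3 and 73.9 CPM in F/A, and 669 and 662 in FBS/LIF. The 3 media on top lay close together and none of their pairwise differences passed, while L-Pro/LIF stood below them and F/A below L-Pro/LIF. Relative to FBS/LIF, Sox2 fell in L-Pro/LIF (log2 fold change -1.27 ± 0.19, adjusted p = 0.00190, edgeR) and in F/A (-3.45 ± 0.21, adjusted p = 7.3e-06). It was lower in F/A than in L-Pro/LIF by a further -2.19 ± 0.20 (adjusted p = 0.00034). Pou5f1, the partner it binds beside, stood at -0.86 in F/A over FBS/LIF, as given above.

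**Figure D2:**
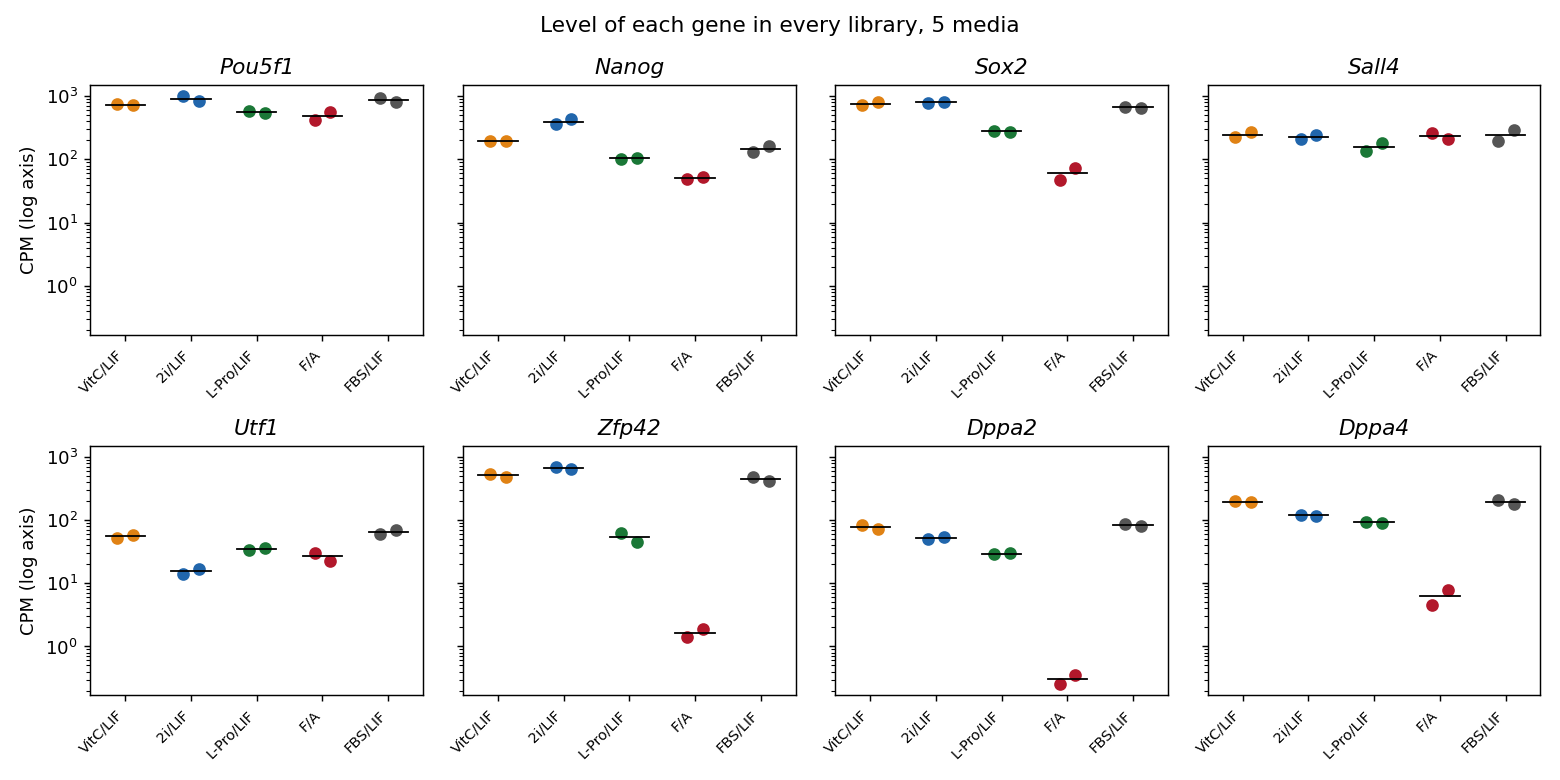
CPM (log axis, the same in all panels) of each gene in the 2 libraries of each medium, with the medium mean as a line. Pou5f1 and Sall4 stay within a narrow band, Nanog peaks in 2i/LIF, Utf1 is lowest in 2i/LIF, and Sox2, Zfp42, Dppa2 and Dppa4 drop in L-Pro/LIF and further in F/A.

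Sall4 had 224 and 271 CPM in VitC/LIF, 209 and 244 in 2i/LIF, 136 and 180 in L-Pro/LIF, 265 and 208 CPM in F/A, and 195 and 293 in FBS/LIF. The L-Pro/LIF libraries were lower than those of every other medium, which overlapped among themselves. None of its 10 comparisons passed edgeR's test, although 3 had an unadjusted p under 0.05, namely L-Pro/LIF over FBS/LIF, L-Pro/LIF over VitC/LIF and F/A over L-Pro/LIF. The difference was 0.58 ± 0.23 for F/A over L-Pro/LIF (adjusted p = 0.104), which DESeq2 did not call either (adjusted p = 0.0570). The other differences of L-Pro/LIF were -0.62 ± 0.23 for L-Pro/LIF over FBS/LIF (adjusted p = 0.0865), -0.64 ± 0.23 for L-Pro/LIF over VitC/LIF (adjusted p = 0.0688) and -0.52 ± 0.23 for L-Pro/LIF over 2i/LIF (adjusted p = 0.105). DESeq2 called L-Pro/LIF lower in these 3 comparisons, with adjusted p of 0.0325, 0.0198 and 0.0442, and so did edgeR on unique hits, the fragments that matched only this gene (0.0450, 0.0340 and 0.0434). When replicate number was added as a block, the second of the 3 also passed (adjusted p = 0.0488). In F/A, Sall4 stood at -0.05 ± 0.23 relative to FBS/LIF.

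Utf1 ran differently from the rest. Its levels were 51.6 and 58.8 CPM in VitC/LIF, 14.0 and 17.0 in 2i/LIF, 33.3 and 36.3 in L-Pro/LIF, 30.7 and 22.9 CPM in F/A, and 60.8 and 70.3 in FBS/LIF. No pair of media overlapped in its libraries, which was not counted over all genes and does not amount to a call. VitC/LIF over FBS/LIF (adjusted p = 0.716, edgeR) and F/A over L-Pro/LIF (adjusted p = 0.133) did not pass. Both 2i/LIF libraries were lower than all the others, including those of F/A. Utf1 fell in 2i/LIF (log2 fold change -2.08 ± 0.18, adjusted p = 6.2e-05, edgeR), in L-Pro/LIF (-0.91 ± 0.17, adjusted p = 0.00550) and in F/A (-1.30 ± 0.17, adjusted p = 0.00058) relative to FBS/LIF. Set against 2i/LIF, it was higher in VitC/LIF by 1.83 ± 0.18 (adjusted p = 0.00016), in L-Pro/LIF by 1.17 ± 0.17 (adjusted p = 0.00071) and in F/A by 0.78 ± 0.18 (adjusted p = 0.00513). No other of the 8 genes was higher in L-Pro/LIF or in F/A than in 2i/LIF by this test.

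Zfp42 had the widest range. It measured 545 and 480 CPM in VitC/LIF, 704 and 645 in 2i/LIF, 62.4 and 45.2 in L-Pro/LIF, 1.39 and 1.90 CPM in F/A, and 483 and 420 in FBS/LIF. The estimated counts behind the F/A values were 11 and 38 fragments. Zfp42 fell in L-Pro/LIF (log2 fold change -3.07 ± 0.20, adjusted p = 3.1e-05, edgeR) and in F/A (-8.05 ± 0.26, adjusted p = 2.5e-07) relative to FBS/LIF, and by -4.98 ± 0.23 in F/A relative to L-Pro/LIF (adjusted p = 8.4e-06). It rose in 2i/LIF by 0.58 ± 0.18 (adjusted p = 0.0427), a call lost without any 1 of the 4 libraries, with an adjusted p of up to 0.225.

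Dppa2 and Dppa4 are neighbours on chromosome 16, with 0 annotated genes between them in RefSeq. Dppa2 had 83.5 and 72.7 CPM in VitC/LIF, 50.4 and 54.0 in 2i/LIF, 28.6 and 30.0 in L-Pro/LIF, 0.254 and 0.350 CPM in F/A, and 88.0 and 82.0 in FBS/LIF. Dppa4 had 200.1 and 192 CPM in VitC/LIF, 122 and 117 in 2i/LIF, 93.2 and 91.7 in L-Pro/LIF, 4.57 and 7.80 CPM in F/A, and 210.3 and 179 in FBS/LIF. For both genes the libraries of VitC/LIF and FBS/LIF overlapped, those of 2i/LIF and L-Pro/LIF were lower, and those of F/A lowest.

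Dppa2 fell in 2i/LIF (log2 fold change -0.70 ± 0.12, adjusted p = 0.00234, edgeR), in L-Pro/LIF (-1.54 ± 0.12, adjusted p = 7.4e-05) and in F/A (-8.02 ± 0.19, adjusted p = 8.2e-08) relative to FBS/LIF. The F/A level rests on estimated counts of 2 and 7 fragments. Dppa4 fell in 2i/LIF (-0.71 ± 0.19, adjusted p = 0.0208), in L-Pro/LIF (-1.07 ± 0.19, adjusted p = 0.00406) and in F/A (-4.93 ± 0.23, adjusted p = 1.6e-06). Its call in 2i/LIF was lost when FBS/LIF replicate 1 or either 2i/LIF library was left out (adjusted p up to 0.129). Part of the reads of both genes matched other loci too. Unique hits were 71.4% to 100% of the estimate for Dppa2 and 80.6% to 88.4% for Dppa4, against at least 96.7% for the other 6, and on unique hits alone the F/A differences were -8.01 for Dppa2 and -4.94 for Dppa4.

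The distance from the highest to the lowest medium mean, on the log2 CPM scale, places the 8 genes among all genes tested, whose median was 1.26. It was 8.67 for Zfp42, higher than in 99.6% of genes, 8.03 for Dppa2 (99.3%), 5.03 for Dppa4 (93.4%), 3.75 for Sox2 (86.4%) and 2.98 for Nanog (80.3%). Utf1 at 2.08 lay higher than 68.8% of genes. Pou5f1 at 0.93 (37.3%) and Sall4 at 0.65 (22.4%) were below the median gene. These are differences, and no test was made between the genes.

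**Figure D3:**
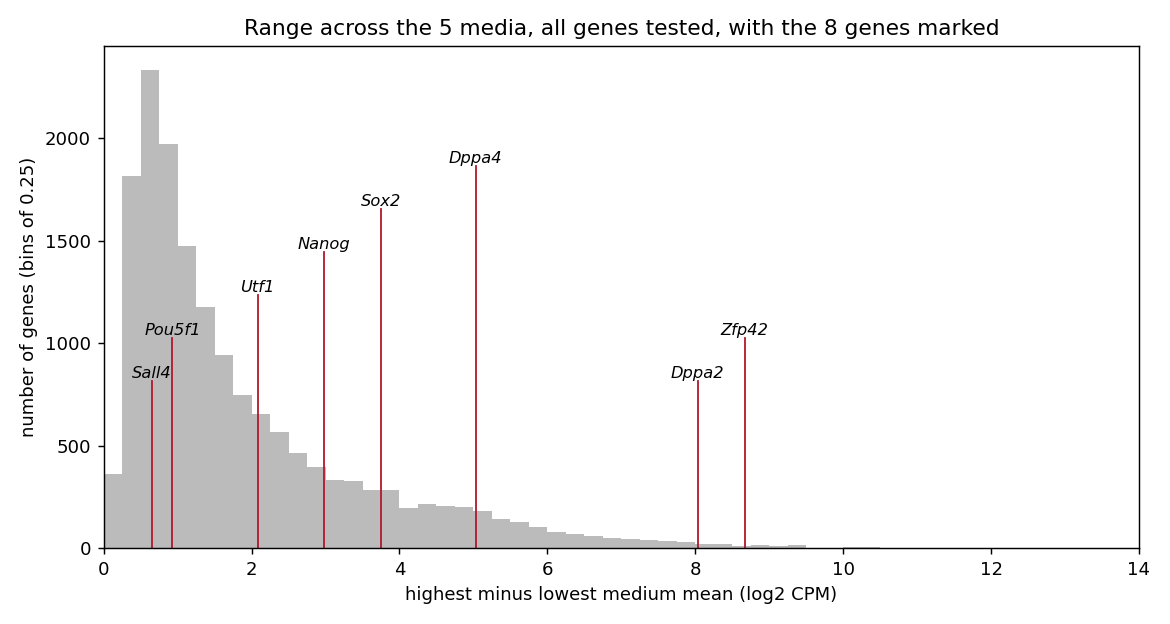
Number of genes (bars, bins of 0.25) by the difference between the highest and the lowest medium mean in log2 CPM, over 16033 genes, with the 8 genes marked by lines whose heights carry no value. Zfp42 at 8.67 and Dppa2 at 8.03 sit in the far tail, and Sall4 at 0.65 and Pou5f1 at 0.93 sit left of the median of 1.26.

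Read medium by medium, L-Pro/LIF over FBS/LIF gave 7 of the 8 genes lower and 0 higher, where 24.0% of all genes were called and 10.3% called lower. The median log2 fold change of the 8 was -0.99, against 0.01 over all genes. Zfp42 at -3.07, Dppa2 at -1.54 and Sox2 at -1.27 led, and Sall4 at -0.62 did not pass. On unique hits, with DESeq2 and with no filter Sall4 also passed, so that all 8 genes were called. The count was 5 when L-Pro/LIF replicate 1, L-Pro/LIF replicate 2 or FBS/LIF replicate 2 was left out.

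F/A over FBS/LIF also gave 7 of 8 lower and 0 higher, with 46.4% of all genes called and 22.0% called lower. The median of the 8 was -2.50, against 0.05 over all genes. The fold changes were spread from -8.05 for Zfp42 to -0.86 for Pou5f1 among the called genes, and the count stayed at 7 without any single library. Both comparisons share the FBS/LIF libraries, so their likeness is not independent. The direct comparison of F/A over L-Pro/LIF gave 5 of 8 lower and 0 higher, with 22.0% of all genes called and 10.9% called lower. They were Dppa2 at -6.49 ± 0.19 (adjusted p = 1.1e-06, edgeR), Zfp42 at -4.98, Dppa4 at -3.85, Sox2 at -2.19 and Nanog at -1.06 ± 0.14 (adjusted p = 0.00211). Pou5f1 at -0.21 ± 0.17 (adjusted p = 0.367), Utf1 at -0.39 ± 0.17 (adjusted p = 0.133) and Sall4 at 0.58 ± 0.23 (adjusted p = 0.104) did not pass. Without F/A replicate 2, the deeper library of that medium, Pou5f1 passed as lower (adjusted p = 0.0261).

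2i/LIF over FBS/LIF split the 8 genes. Nanog and Zfp42 rose, Utf1, Dppa2 and Dppa4 fell, and Pou5f1 (0.06 ± 0.17), Sox2 (0.26 ± 0.19) and Sall4 (-0.11 ± 0.23) did not pass. Those 5 calls compare with 30.4% of all genes called, 12.5% higher and 17.9% lower. Without FBS/LIF replicate 1, 2i/LIF replicate 1 or 2i/LIF replicate 2 the count was 3, namely without Zfp42 and Dppa4. VitC/LIF over FBS/LIF gave 0 of 8 by edgeR and 0 by DESeq2, with 1 at an unadjusted p under 0.05 (Nanog), and 0.674% of all genes were called there. The fold changes in VitC/LIF lay between -0.26 for Pou5f1 and 0.43 for Nanog, with adjusted p between 0.249 and 0.998.

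**Figure D4:**
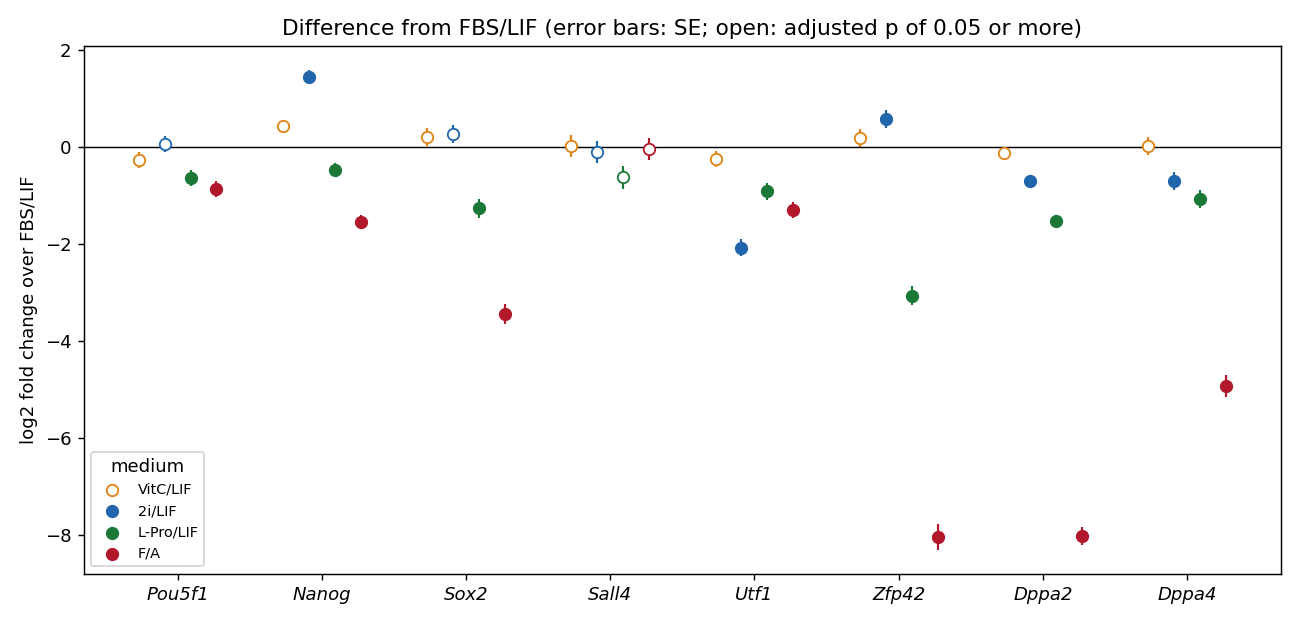
Log2 fold change over FBS/LIF (points) with SE (bars) for the 8 genes in VitC/LIF, 2i/LIF, L-Pro/LIF and F/A; open points had an adjusted p of 0.05 or more. The F/A points run from -0.05 for Sall4 to -8.05 for Zfp42, and 2i/LIF has points on both sides of 0.

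Pairs of media without FBS/LIF were tested in the same model. L-Pro/LIF over VitC/LIF had 6 of 8 lower and 0 higher (29.8% of all genes called, 13.0% lower), with Zfp42 at -3.25, Sox2 at -1.46, Dppa2 at -1.41, Dppa4 at -1.09, Nanog at -0.90 and Utf1 at -0.66. The Utf1 call was lost without either L-Pro/LIF library or VitC/LIF replicate 2 (adjusted p up to 0.104). VitC/LIF over 2i/LIF had Utf1 (1.83), Dppa4 (0.72) and Dppa2 (0.58) higher and Nanog (-1.03 ± 0.14, adjusted p = 0.00092, edgeR) lower, with 24.5% of all genes called, 14.9% higher and 9.62% lower. The Dppa4 call was lost without any 1 of the 4 libraries (adjusted p of 0.103 to 0.141). The Dppa2 call was lost without 2i/LIF replicate 1 (adjusted p = 0.0783) or VitC/LIF replicate 1 (0.0761), so the count of 4 then became 2.

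L-Pro/LIF over 2i/LIF had 5 lower and Utf1 higher, where 44.6% of all genes were called, 25.3% higher and 19.3% lower. Sall4 and Dppa4 did not pass there, with Dppa4 at -0.37 ± 0.19 (adjusted p = 0.146, edgeR). DESeq2 called Dppa4 lower (adjusted p = 0.044). F/A over 2i/LIF had 6 lower and Utf1 higher, with 58.4% called, 32.0% higher and 26.4% lower. F/A over VitC/LIF had 7 lower, with 50.5% called and 23.7% lower. Pou5f1 lost its call in L-Pro/LIF over 2i/LIF without 2i/LIF replicate 1 or L-Pro/LIF replicate 2 (adjusted p up to 0.0812), and in F/A over VitC/LIF without either VitC/LIF library or F/A replicate 1 (up to 0.0884). The lowest values in these 3 comparisons were those of Zfp42, at -3.65, -8.62 and -8.23. Over all 10 comparisons, 54 of the 80 values for the 8 genes passed, where 0.674% to 58.4% of all genes were called per comparison. In each of the 54 the libraries of both media did not overlap, and the difference had the same sign within replicate 1 and within replicate 2. With 2 libraries per medium a call largely brings this with it, so it is not separate support. Without any single library and under the other settings tried, 45 of the 54 held.

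Experiment A holds the same genes in untreated day 0 cells, F/A day 3, F/A day 5 and L-Pro day 5. It has 1 library per condition and therefore no test. Untreated cells differ from the others in medium as well as in day, so time and medium cannot be told apart there. Ratios are log2 of TMM-scaled CPM with an exact 95% interval that covers counting error only. Zfp42 had 20.1 CPM on L-Pro day 5, 16.5 on F/A day 3 and 0.963 on F/A day 5, against 421 CPM in untreated cells. It was thus low by day 3 of F/A already, at a log2 ratio of -4.67 (-4.79 to -4.55), and lower by -4.10 (-4.66 to -3.59) again on F/A day 5 over F/A day 3. Dppa2 differed later, with 32.5 CPM on L-Pro day 5, 102.7 on F/A day 3 and 0.662 on F/A day 5, against 149 in untreated cells. Its log2 ratio was -0.54 (-0.60 to -0.48) for F/A day 3 over untreated cells and -7.28 (-7.95 to -6.68) for F/A day 5 over F/A day 3.

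Dppa4 followed the Dppa2 course at 87.0 CPM on L-Pro day 5, 107 on F/A day 3 and 4.72 on F/A day 5, against 174 in untreated cells. Most of its difference also lay between the F/A days, at -4.51 (-4.75 to -4.28), with -0.69 (-0.75 to -0.63) by day 3. Sox2 had 99.7 CPM on L-Pro day 5, 126 on F/A day 3 and 34.6 on F/A day 5, against 492 in untreated cells, with ratios of -1.97 by day 3 and -1.86 from day 3 to day 5. Nanog had 111, 206 and 109 CPM in the same order, against 407 in untreated cells, and Utf1 had 185, 187 and 94.6 CPM, against 323.

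Pou5f1 had 859 CPM on L-Pro day 5, 958 on F/A day 3 and 782 on F/A day 5, against 1166 in untreated cells, and its largest log2 ratio over untreated cells was -0.58 on F/A day 5. Sall4 had 191, 162 and 178 CPM in the same order, against 380, with ratios of -0.99, -1.23 and -1.09 over untreated cells. In experiment B the F/A libraries of Sall4 overlapped those of FBS/LIF and VitC/LIF. The experiments differ in extraction (Trizol in A, RNeasy in B), vitamin C in the reference, the cells labelled and the counting, so these values are set side by side only. The doses of L-proline in B and of bFGF in A are not stated, so the media may differ too. Past a 2-fold difference over untreated cells were 4 of the 8 genes on L-Pro day 5, 3 on F/A day 3 and 7 on F/A day 5, all lower, where 35.4%, 30.7% and 37.2% of genes with at least 1 CPM in either library were past it and 15.4%, 13.5% and 16.6% were past it as lower. On L-Pro day 5, Sall4 (-0.993) and Dppa4 (-0.996) lay on the edge of that fold. Scaled by total counts instead of TMM, both were past it, at -1.002 and -1.006. Nanog on F/A day 3 (-0.983) lay close to the edge too.

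**Figure D5:**
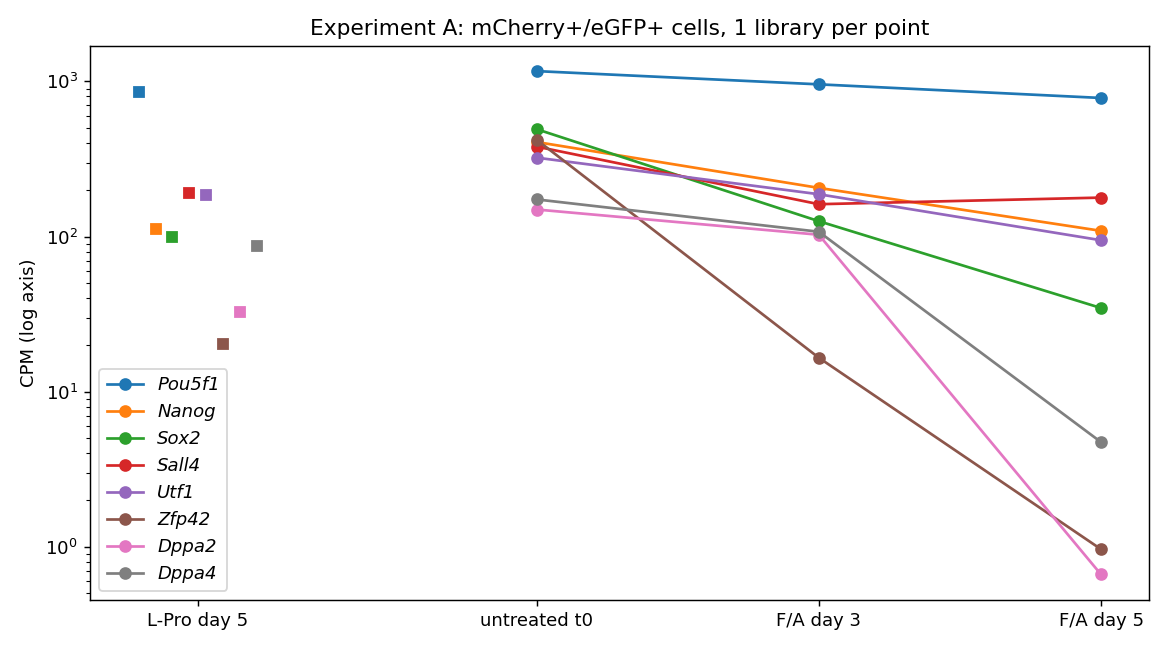
CPM (log axis) of the 8 genes in the 4 libraries of experiment A, with circles joined by lines for untreated cells, F/A day 3 and F/A day 5, squares for L-Pro day 5, and no replicates. The Zfp42 line is at 16.5 CPM by F/A day 3, while Dppa2 and Dppa4 are still above 100 CPM there and reach 0.662 and 4.72 CPM on day 5.

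How alike the patterns were was described by Pearson's r of log2 CPM over the 10 libraries of experiment B. These share media, so r for most of the genes reflects the 5 medium means, and it is given without a p. For Sall4, the FBS/LIF libraries alone stood at 195 and 293 CPM, against medium means of 158 to 247. Its r therefore also carries the spread between libraries of the same medium. Sox2 and Zfp42 had r = 0.996, and so did Dppa2 and Dppa4. Zfp42 also had r = 0.961 with Dppa2 and 0.953 with Dppa4. Yet in 2i/LIF over FBS/LIF Zfp42 stood at 0.58, against -0.70 for Dppa2 and -0.71 for Dppa4. A high r therefore did not mean the same direction in every medium. Pou5f1 reached 0.880 with Sox2 and 0.883 with Zfp42, and Nanog 0.889 and 0.893. Utf1 had r between -0.211 (with Nanog) and 0.378 (with Dppa4), and Sall4 between -0.0619 and 0.211 with the other genes.

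Outside the 8, the search covered 6982 named genes with a mean of at least 4 log2 CPM, fewer than the 16033 tested. Among these, the closest patterns were those of U2af1l4 (r = 0.980) and Uba2 (0.976) for Pou5f1, Hap1 (0.992) and Pfkp (0.988) for Nanog, and Mvp (0.998) and Helb (0.997) for Sox2. For Sall4 they were Nacc1 (0.948) and Phf12 (0.942), and for Utf1 Tamm41 (0.985) and Fam169a (0.979). For Zfp42 they were Nup62cl (0.998) and Helb (0.997), and for Dppa4 Mkrn1 (0.994) and Csrp2 (0.989). For Dppa2 they were Dnmt3l (0.993), a cofactor of DNA methyltransferases, and Gdf3 (0.992), a TGF-beta family ligand. Dnmt3l stood at 159 CPM in VitC/LIF, 107 in 2i/LIF, 47.3 in L-Pro/LIF, 0.454 in F/A and 304 in FBS/LIF.

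A list of 20 other general pluripotency genes put the 8 in context. The share of all genes called in either direction, given above and repeated here for this and the next lists, was 24.0% in L-Pro/LIF, 46.4% in F/A, 30.4% in 2i/LIF and 0.674% in VitC/LIF, each over FBS/LIF. In L-Pro/LIF over FBS/LIF 15 of the 20 fell and 0 rose, and the median of all 20 was -0.72, led by Fbxo15 (-2.62), Dppa5a (-2.60) and Fgf4 (-2.57), the growth factor gene that Pou5f1 and Sox2 activate. In F/A over FBS/LIF 16 fell and 1 rose, with a median of -1.23, and in 2i/LIF over FBS/LIF 6 fell and 3 rose, with a median of -0.31. The strongest falls in 2i/LIF were those of Dppa3 (-2.57 ± 0.25, adjusted p = 0.00011, edgeR), Eras (-2.07) and Lin28a (-2.02), a let-7 regulator, beside Utf1 at -2.08. In VitC/LIF over FBS/LIF 0 of the 20 passed.

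Related factors of the same families were counted in the same way, and no test was made between the lists. Among 12 paralogues of the 8, F/A over FBS/LIF had 8 higher and 1 lower (46.4% of all genes called) with a median of 0.87, including Sall3 (2.71), Sox11 (1.39) and Sall2 (1.21). L-Pro/LIF over FBS/LIF had 5 higher and 4 lower (24.0% of all genes called) and a median of -0.02, with Sall2 at 1.60 and Sox4 at 1.46 against Sall1 at -1.62. In 2i/LIF over FBS/LIF 6 of the 12 fell and 0 rose (30.4% of all genes called), led by Pou3f1 (-5.29), a POU factor of the primed epiblast, and Sox4 (-3.32). Of 17 subunits of NuRD and of the SWI/SNF complex of stem cells (esBAF), 1 rose and 1 fell in L-Pro/LIF (Rbbp7 at 0.48, Mta3 at -0.78), and 3 fell and 0 rose in F/A, led by Mta3 at -1.79. For L-Pro/LIF, 2 of 17 stand beside 24.0% of all genes called, and for F/A, 3 of 17 stand beside 46.4%.

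Lists of the naive and primed states were counted beside the same shares of all genes called, 24.0% in L-Pro/LIF, 46.4% in F/A and 30.4% in 2i/LIF over FBS/LIF. Of 9 naive transcription factors, 8 fell in F/A (median -6.08) and 8 in L-Pro/LIF (median -3.01) relative to FBS/LIF, and 7 rose in 2i/LIF with a median of 1.11. Of 7 primed epiblast genes, 6 rose in F/A (median 1.32) and 6 in L-Pro/LIF (median 1.31), and 5 fell in 2i/LIF. The lists share genes, so their counts are not independent. Pou3f1 and Sall2 are on the primed and the paralogue lists. Foxa2 is on the primed list and Sox17 on the paralogue list, and both are also among the primitive endoderm markers. Against these, the medians of the 8 genes were -0.99 in L-Pro/LIF, -2.50 in F/A and -0.03 in 2i/LIF. Of 6 genes of the 2-cell-like state, which Dppa2 and Dppa4 are known to activate, 3 passed the low-count filter, and 3 of 3 fell in F/A and 2 of 3 in L-Pro/LIF. In 2i/LIF 1 of the 3 rose. In VitC/LIF, where 0.674% of all genes were called, 1 of the 3 also rose. A link of these genes to the levels of Dppa2 and Dppa4 was not tested. The summed level of the 6 2-cell-like genes was 0.127 and 0.150 CPM in F/A, 1.33 and 2.33 in L-Pro/LIF, 26.1 and 24.7 in VitC/LIF and 13.5 and 13.7 in 2i/LIF, against 6.47 and 7.36 in FBS/LIF.

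Markers of other cell types are given as sums over each list and as counts called relative to FBS/LIF. Of all genes, 46.4% were called in F/A, 24.0% in L-Pro/LIF, 30.4% in 2i/LIF and 0.674% in VitC/LIF, each over FBS/LIF. The 6 mesendoderm markers summed to 436 and 460 CPM in F/A, 58.5 and 70.3 in L-Pro/LIF and 21.4 and 21.3 in 2i/LIF, against 4.16 and 4.64 in FBS/LIF, none of them at 0. All 6 were called higher in F/A, 5 in L-Pro/LIF and 3 in 2i/LIF, and T, the gene of brachyury, made up 327 CPM of the F/A mean. The 4 neuroectoderm markers, mostly Nes, summed to 328 and 471 CPM in F/A, 283 and 314 in L-Pro/LIF and 17.0 and 19.7 in 2i/LIF, against 81.1 and 82.9 in FBS/LIF, with Neurog2 at 0 in F/A and 2i/LIF. Of the 3 tested, 2 were higher in F/A, 1 was higher in L-Pro/LIF and 3 were lower in 2i/LIF.

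The 8 primitive endoderm markers summed to 77.9 and 59.4 CPM in F/A, 14.2 and 14.7 in L-Pro/LIF and 3.23 and 2.86 in 2i/LIF, against 6.70 and 16.8 in FBS/LIF, with none at 0. Of these, 5 were higher in F/A, 0 were called in L-Pro/LIF, whose sums lay within those of FBS/LIF, and 3 were lower in 2i/LIF. These and the next counts stand beside 46.4% of all genes called in F/A, 24.0% in L-Pro/LIF and 30.4% in 2i/LIF. An excess over these shares was not tested. The 8 fibroblast markers stood at 13.1 and 9.25 CPM in F/A, 11.6 and 12.4 in L-Pro/LIF and 1.22 and 0.785 in 2i/LIF, against 2.73 and 2.30 in FBS/LIF, where Lum, Postn and Prrx1 were at 0. Of the 6 tested, 4 were higher in F/A and 4 in L-Pro/LIF, and 2 were lower in 2i/LIF. The 6 trophectoderm markers summed to 11.8 and 8.75 CPM in F/A, 6.01 and 7.43 in L-Pro/LIF and 12.4 and 11.9 in 2i/LIF, against 5.96 and 5.67 in FBS/LIF. Of the 5 tested, 2 were higher and 1 lower in F/A, 1 higher and 1 lower in L-Pro/LIF, and 2 higher and 1 lower in 2i/LIF. The sums in VitC/LIF were at most 9.83 CPM for the mesendoderm, primitive endoderm, fibroblast and trophectoderm lists and 58.6 and 64.0 CPM for the neuroectoderm list, with 0 markers called. The part of such cells in the levels of the 8 genes was not tested.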

How the data were processed

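For experiment B the deposited files hold, per gene and per the file headers, the natural log of an FPKM value, a count of unique hits and an effective length. The deposited files of experiment A hold raw counts, 1 row per Ensembl gene. The submitters' processing notes name CASAVA, TopHat2 2.0.13, HTSeq 0.6.1p1 and mm9 (NCBIM37), and for experiment B also Bowtie and DESeq, without roles. The strand setting is not given in the sources used here. Counts of experiment B were estimated as the exponential of the deposited natural log value, times effective length, times mapped fragments, and rounded. The deposited unique-hit count served as an alternative. Symbols came from GENCODE vM21.

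Genes kept by filterByExpr were scaled by TMM and tested with edgeR 4.0.16 (R 4.3.3) in 1 quasi-likelihood model of 10 libraries with a term per medium. It had 5 residual degrees of freedom and a common BCV of 0.238. SE was taken from F and the log2 fold change, and SD is over 2 libraries. DESeq2 1.42.0 was an alternative. The code was tested on simulated counts.

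The 8 genes, 12 gene lists and tests were chosen with earlier results of these data known. All 8 genes were tested and counted in each comparison, though not all are named in each. From each other list up to 3 called genes with the largest change could be named where the higher group averaged 4 log2 CPM or more, and for each of the 8 genes the 2 most alike genes by Pearson's r.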

Additional observations from a re-analysis of the deposited data

Results flagged for a closer look

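For Sall4 in F/A over L-Pro at day 5, the single contrast that both experiments hold by name, with doses stated only in part, the values had opposite signs. In experiment B the fitted difference of 0.58 ± 0.23 did not pass (adjusted p = 0.104, edgeR), and the log2 difference was 0.96 between the replicate 1 libraries and 0.21 between the replicate 2 libraries, and in experiment A it was -0.10 (-0.15 to -0.05, counting error only). The difference between the experiments was not tested.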

How the results depend on the processing

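Of the 54 calls for the 8 genes, the same 54 passed under the replicate block, which gave 55, and on unique hits, which gave 57. DESeq2 added 4 calls to the 54, and the fit with no filter added 2. All 8 genes were called in L-Pro/LIF over FBS/LIF on unique hits, with DESeq2 and with no filter. With DESeq2 all 8 were also called in L-Pro/LIF over 2i/LIF. RLE size factors changed no call. Calls were lost only by leaving out a library. The number of the 8 genes called then ranged from 5 to 7 in L-Pro/LIF over FBS/LIF, 3 to 4 in 2i/LIF over FBS/LIF, 5 to 6 in L-Pro/LIF over VitC/LIF, in F/A over L-Pro/LIF and in L-Pro/LIF over 2i/LIF, 2 to 3 in VitC/LIF over 2i/LIF and 6 to 7 in F/A over VitC/LIF. It stayed at 7 in F/A over FBS/LIF and over 2i/LIF and at 0 in VitC/LIF over FBS/LIF. A lone library of a medium is assumed there to vary like the others.

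Same-numbered libraries share only a number by their labels. Their deviations correlated at r = 0.117 to 0.644 between media, and effective lengths were 39.4 to 54.1 bases longer in replicate 2 libraries, against -1 to 7 in replicate 1.

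Over all genes, leaving out a library gave 2002 to 2238 calls in L-Pro/LIF over FBS/LIF, 6 to 12 in VitC/LIF over FBS/LIF, 2932 to 3298 in 2i/LIF over FBS/LIF, 4345 to 8464 in F/A over FBS/LIF, 2860 to 3057 in L-Pro/LIF over VitC/LIF, 752 to 6296 in F/A over L-Pro/LIF, 2150 to 2302 in VitC/LIF over 2i/LIF and 5239 to 8973 in F/A over VitC/LIF. VitC/LIF over FBS/LIF had 108 calls, against 243 on unique hits, 432 with DESeq2 and 263 with no filter, and the cause was not tested. With no filter, genes past 2-fold in experiment A numbered 11037 for L-Pro day 5, 10687 for F/A day 3 and 11425 for F/A day 5 over untreated cells, 8707 for F/A day 5 over day 3 and 7209 for F/A day 5 over L-Pro day 5, since genes with a few counts then enter.

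Some values far from the threshold changed sign. With no filter, Sall4 stood at -0.0055 and Dppa4 at -0.0153 in VitC/LIF over FBS/LIF, and Sall4 at -0.0023 in F/A over 2i/LIF, where unique hits gave -0.0309. Leaving out a library, Sall4 ranged from -0.24 to 0.34 in VitC/LIF, -0.37 to 0.21 in 2i/LIF and -0.33 to 0.26 in F/A over FBS/LIF, from -0.0116 to 0.26 in VitC/LIF and -0.18 to 0.16 in F/A over 2i/LIF, and from -0.26 to 0.0563 in F/A over VitC/LIF. Dppa4 ranged from -0.10 to 0.14 in VitC/LIF over FBS/LIF, Pou5f1 from -0.0708 to 0.18 in 2i/LIF over FBS/LIF, and Sox2 from -0.13 to 0.0073 in VitC/LIF over 2i/LIF.

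With 2 libraries per medium and F/A replicate 1 at a lower depth, small differences such as those of Sall4 stayed undecided, and the F/A levels of Dppa2 rest on 2 and 7 fragments.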

Other observations

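Nanog in F/A over L-Pro at day 5 stood at -1.06 ± 0.14 in experiment B (adjusted p = 0.00211, edgeR), while the single libraries of experiment A gave a log2 ratio of -0.03 (-0.10 to 0.03, counting error only). Utf1 in the same contrast was -0.39 ± 0.17 in experiment B and -0.97 (-1.03 to -0.91) in experiment A. Dppa2, Zfp42, Dppa4 and Sox2 were lower in F/A than in L-Pro in both experiments, by -6.49, -4.98, -3.85 and -2.19 in experiment B and by -5.62, -4.39, -4.20 and -1.53 in experiment A.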
